A study of Homo sapiens with 7 samples.

Results

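Distal 11q, the part of the long arm of human chromosome 11 from 90 Mb to the telomere, was examined gene by gene in BHT-101 cells with and without ASH1L. BHT-101 is an anaplastic thyroid cancer line, and ASH1L encodes a Trithorax-type enzyme that methylates histones. The members are 57 protein-coding genes of this stretch out of 13142 genes in the expression table. They were picked by position and with the knockout against wild-type differences of the same libraries in view, so their differences from wild type are given as a description. Positions are from GENCODE 29 on hg38. All 57 members were found in the table, and 53 passed a filter on low values (log2 RPKM above 0 in at least 3 of the 7 libraries). ALG9, TAGLN, USP2 and VWA5A did not pass it.

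RNA sequencing was done on 3 biological replicates of wild-type cells (WT1 to WT3) and on 1 library of each of 4 knockout clones (KO1 to KO4). Every clone carries premature stop codons in ASH1L. The protein is cut short after residue 413 in KO1 and after residue 610 in KO2, by the labels, while KO3 reaches residue 2129; in these clones both alleles have the same stop. In KO4 the alleles stop after residues 2169 and 2174. All libraries came from the same line and medium, so the wild-type cells share every other feature of BHT-101 that the labels name. Each knockout line is a single clone and no clone with intact ASH1L was analysed, so loss of ASH1L and descent from a single cell cannot be told apart. DNA copy number was not analysed here.

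Genes that lie next to each other on a chromosome share its copy number and, in part, its chromatin, and a gain or loss of a segment usually shifts the RNA of most genes on it by a like factor. Single genes can depart from the shared factor through regulation of their own. Distal 11q carries no single pathway. It holds the DNA damage kinases ATM and CHEK1, the inhibitor-of-apoptosis genes BIRC2 and BIRC3, the ubiquitin ligases CBL and CUL5, adhesion genes such as CADM1 and MCAM, the T cell receptor gene CD3D and the chaperone HSPA8, among many housekeeping genes.

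The libraries were checked first. WT samples were alike across the 11154 tested genes, with Pearson correlations of 0.988 to 0.995, whereas KO1 reached 0.821 to 0.830 with WT and the other clones 0.913 to 0.940. The median SD of a tested gene was 0.10 log2 units among WT samples and 0.30 among clones. For the tested members it was 0.09 and 0.21. ASH1L RNA was at 3.34, 3.30 and 3.22 log2 RPKM in WT1 to WT3 and at 2.69, 2.54, 2.42 and 3.74 in KO1 to KO4; a stop codon need not lower the RNA, so this level does not check the edit, and KO4 was above every WT sample. Of 5 epithelial markers all were in the table, with a summed level of 487 to 583 RPKM in WT and 233 to 576 in the clones. The sum hides differences between markers. CDH1 was at 0.75, 0.78 and 0.47 log2 RPKM in WT and -5.86, 1.96, -2.20 and -2.83 in KO1 to KO4. EPCAM was at 2.95, 3.04 and 2.85 in WT and 1.71, 3.88, 3.19 and 1.85 in the clones. Only KRT18 had all clones below all WT samples. Of 7 thyroid markers only PAX8 was among the genes analysed, below the filter, so the labelled tissue cannot be checked by differentiated thyroid genes. From the list of 8 markers of fibroblasts and endothelium, 4 had a value, summing to 51.4 to 55.4 RPKM in WT and 20.4 to 70.2 in the clones.

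The stretch as a whole stood lower in every clone. Across its 144 tested protein-coding genes, log2 differences from the WT mean had medians of -0.64, -0.64, -0.65 and -0.73 in clones KO1 to KO4, which are ratios of 0.643, 0.644, 0.639 and 0.604. The WT samples lay at -0.02, 0.02 and 0.00. These differences are on the log2 RPKM scale with each library's median over all tested genes set to 0, an offset of at most 0.018 log2 units. The medians of the 4 clones thus lay close together, and all of them lay far below those of the WT samples. A lower level in bulk RNA cannot be told apart from fewer cells that carry the RNA.

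The members followed the same level. The medians of the 53 tested members were -0.67, -0.71, -0.70 and -0.77 in KO1 to KO4. The 91 tested genes of the stretch that are no members had medians of -0.57, -0.57, -0.58 and -0.68. The members were also the better expressed genes, at a median WT level of 3.37 log2 RPKM against 2.77 for the tested stretch and 2.89 for all tested genes. Taken as a whole, the 489 tested genes on the rest of chromosome 11 had medians of 0.02, -0.05, -0.01 and -0.12, and the 10113 genes on other chromosomes had medians of 0.01 in each clone. On chromosome 1 from 140 Mb, where ASH1L lies, the median of 475 genes was -0.63 in KO1 but 0.13, 0.12 and -0.10 in KO2, KO3 and KO4.

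All 4 clones were below all 3 WT samples in 46 of the 53 tested members, and all 4 were above in 1, CADM1. Over all tested genes these patterns held in 10.1% and 8.88%. CADM1 passed the filter only through KO1, KO3 and KO4, and CD3D, among the 46, only through the WT samples. The remaining 6 tested members overlapped between the groups: BIRC3, CASP4, VPS11, MCAM, SORL1 and HSPA8. With limma's moderated test and Benjamini-Hochberg adjustment over all tested genes, 13 of the 53 were lower at an adjusted p under 0.05, against 0.242% of all tested genes: ACAT1, ARCN1, CCDC82, DCUN1D5, FDX1, MTMR2, NRGN, PAFAH1B2, RDX, STT3A, TAF1D, TMEM123 and UBASH3B. Since the members were selected on this contrast, nothing is read from these counts. The calls also depended on single libraries: none of the members was called without any 1 of the WT samples or without KO4, 12 were called without KO1, 27 without KO2 (26 lower and 1 higher) and 16 without KO3. The shares of all tested genes called were 0.472%, 2.25% and 0.799% without KO1, KO2 and KO3. They were 0.00908% without KO4 and 0% without any 1 of the WT samples.

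**Figure D1:**
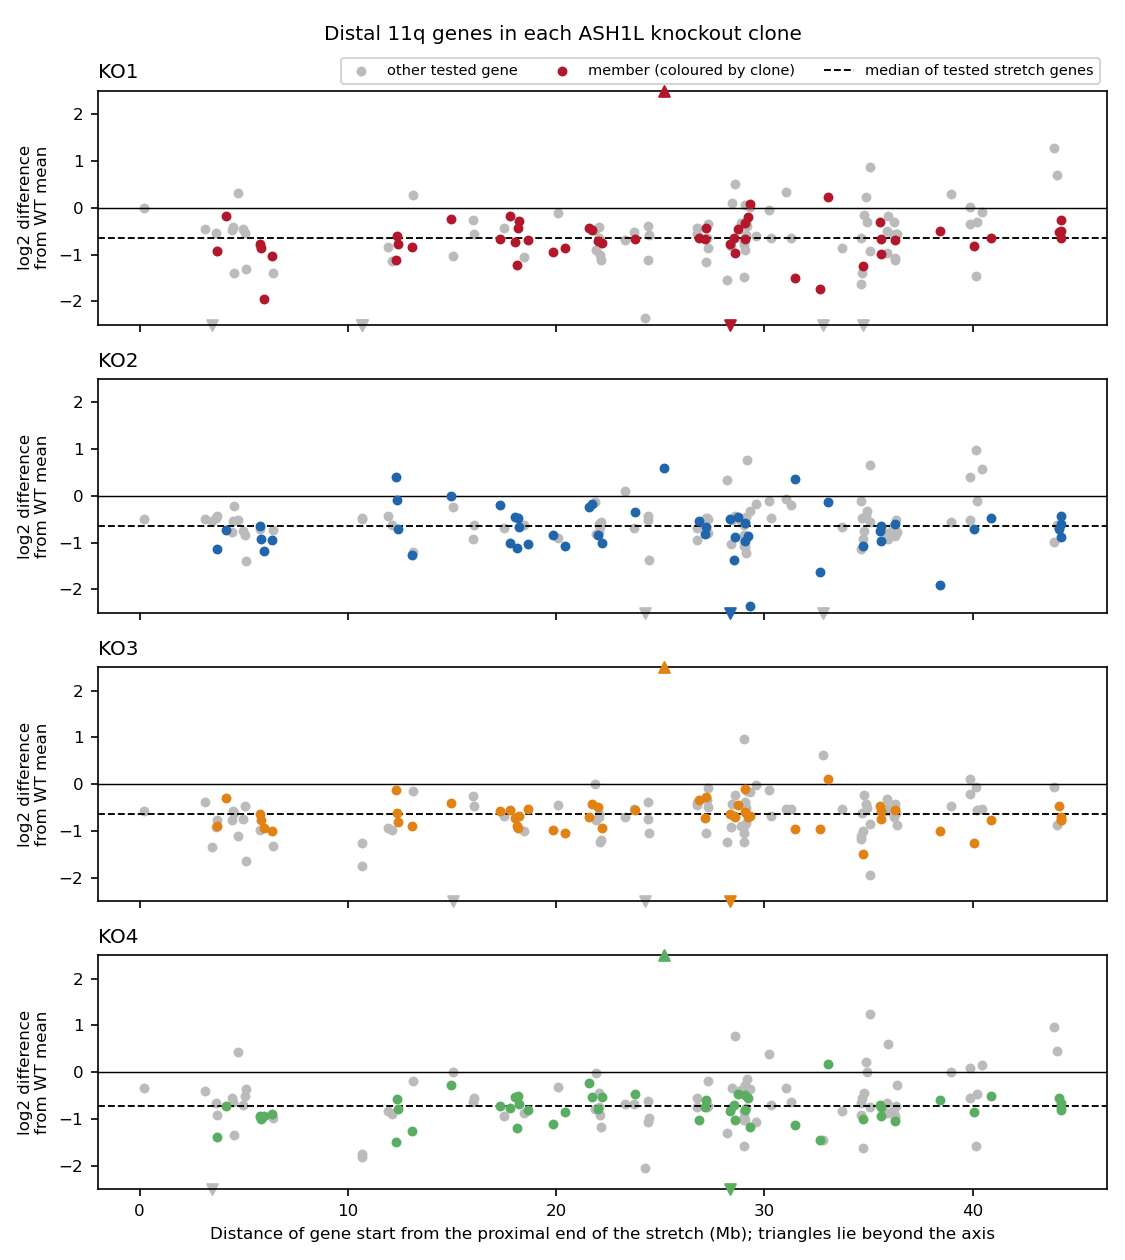
Log2 difference from the WT mean (y axis) of the 144 tested protein-coding genes of distal 11q against the distance of the gene start from the proximal end of the stretch in Mb (x axis), with 1 panel for each clone. Coloured points are the tested members and grey points the other genes. The dashed line is the stretch median (-0.64, -0.64, -0.65 and -0.73 in KO1 to KO4). Triangles are genes beyond the axis. Most genes lie below 0, with interquartile ranges of 0.58, 0.42, 0.46 and 0.47 log2 units in KO1 to KO4.

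The shift ran along the whole stretch with some unevenness. In blocks of 5 Mb, the largest medians below WT were between 95 and 100 Mb, at -0.95, -0.87, -0.95 and -0.94 in KO1 to KO4 over 8 genes, of which 4 are members (CEP57, MTMR2, MAML2 and CCDC82). The block from 115 to 120 Mb, which holds 36 genes and 13 members, had medians of -0.58, -0.61, -0.50 and -0.74. The last block, from 130 to 135 Mb, had -0.40, -0.61, -0.63 and -0.53. Proximal to the stretch some blocks were lower too. From 75 to 80 Mb the medians were -0.48, -0.14, -0.30 and -0.42 over 24 genes, so that KO1 was lower there than in the last block of the stretch. From 80 to 85 Mb they were 0.06, -0.34, -0.26 and -0.20 over 7 genes, from 85 to 90 Mb -0.25, -0.11, -0.39 and -0.24 over 13, and from 70 to 75 Mb -0.11, -0.17, -0.06 and -0.32 over 35. The tested genes on either side of the boundary, named for their position, differed. CTSC, a lysosomal protease gene just outside, stood at -1.52, -0.89, -0.84 and -1.47, and CHORDC1, which encodes a protein that binds the chaperone HSP90, just inside, at -0.01, -0.49, -0.58 and -0.33. Where the shift begins is therefore not resolved by these genes.

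To compare members with their surroundings, the stretch median of the same clone was subtracted from each member's difference. The result is called the residual here: 0 means that the gene followed the stretch, a negative value that it was lower and a positive value that it was higher. A margin of 0.25 log2 units was used. Residuals were at or below -0.25 in all 4 clones for 4 members (ACAT1, CD3D, NRGN and UBASH3B) and at or above 0.25 in all 4 for 4 others (CADM1, HSPA8, USP2 and VWA5A). In 7 members the residual passed the margin downward in some clones and upward in others (BIRC3, MCAM, SIK3, SLC35F2, SORL1, TAGLN and THYN1). The other 42 met none of these conditions, although some of them passed the margin in part of the clones. ETS1 had residuals of 0.14, -1.27, -0.35 and 0.13 in KO1 to KO4. MAML2 had -1.32, -0.55, -0.29 and -0.21, so only KO4 kept it from the members below the stretch. Over the 144 tested genes of the stretch, of which 53 are members, the same margins put 6 below, 6 above, 27 on both sides and 105 in none of these. The member counts above also include ALG9, TAGLN, USP2 and VWA5A, which lie below the filter and are not among the 144. TAF1D, with a residual of -0.249 in KO3, and CASP4, with 0.249 in KO3, fell just short of the margin there.

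**Figure D2:**
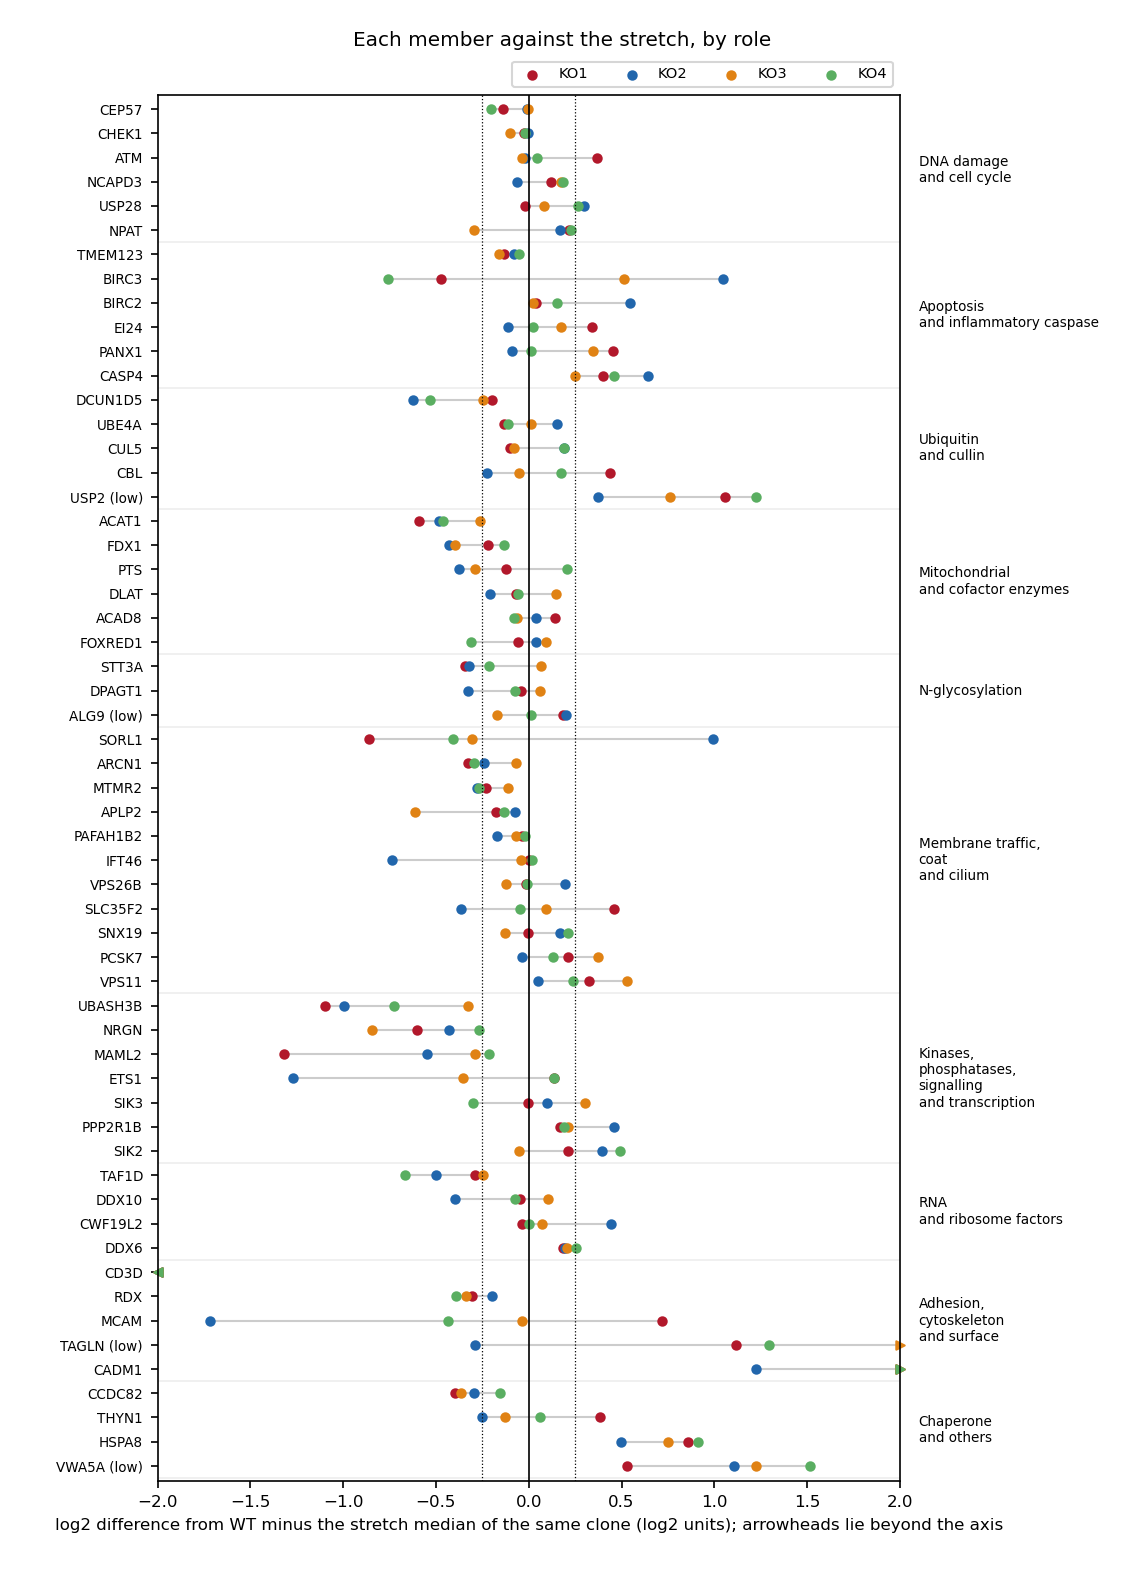
Residual of each of the 57 members (x axis, log2 difference from WT minus the stretch median of the same clone, in log2 units), 1 point for each clone, with members grouped by role on the y axis. Dotted lines mark the margin of 0.25, arrowheads lie beyond the axis, and "low" marks the 4 members below the filter; 11 tested members lie between the dotted lines in all 4 clones, while CD3D is far to the left and CADM1 far to the right.

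The member with the lowest residuals was CD3D (ENSG00000167286, chr11:118338954-118342744, minus strand), which encodes the delta chain of CD3, the signalling part of the T cell receptor. Its level was 3.05, 3.29 and 3.39 log2 RPKM in WT1 to WT3 and -7.75, -0.96, -2.51 and -0.47 in KO1 to KO4. All WT samples were high and all clones low, and KO1 sat at the value the table gives to a gene without reads. At an assumed prior count of 0.25 and the estimated mean library size, the WT levels stand for about 446, 528 and 563 reads and KO2 to KO4 for about 27.8, 9.47 and 38.9, so the clones' values rest on few reads. No fold is given for KO1. Residuals were -3.56, -5.09 and -2.98 in KO2 to KO4. In the WT samples CD3D was thus expressed near the median gene, at a mean of 3.24 log2 RPKM against a median of 2.89.

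Other leukocyte genes were looked at beside CD3D. Of 15 leukocyte markers, 4 were among the genes analysed, and CD3D was the only one above the filter. PTPRC, which encodes the pan-leukocyte protein CD45, CD3E and CD3G were not among them. The summed level of the 4 markers was 10.0 to 12.7 RPKM in WT and 0.694 to 3.20 in the clones, with CD3D holding most of it in WT. Beside CD3D, LCK was low throughout, at a WT mean of -1.41 log2 RPKM, and was below WT in all 4 clones. The other markers, CD14 and ITGAM, overlapped between the groups. CD14 was at -0.32, -0.27 and 0.49 log2 RPKM in WT and -0.72, -0.17, -1.72 and 1.18 in KO1 to KO4. ITGAM was at -0.87, -1.21 and -1.16 in WT and -4.01, -0.34, -0.58 and -2.41 in the clones. The part of other cells in the CD3D result was not tested.

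The promoter of CD3D differed from that of most members in base composition. It is shown with ATM's because CD3D's window holds few CG and ATM's many. Each run is the RefSeq window of GRCh38.p14 from 250 bases before to 50 bases after the start, 5′ to 3′ on the gene's strand, with CG in capitals.
CD3D, chr11:118342656-118342955, minus strand: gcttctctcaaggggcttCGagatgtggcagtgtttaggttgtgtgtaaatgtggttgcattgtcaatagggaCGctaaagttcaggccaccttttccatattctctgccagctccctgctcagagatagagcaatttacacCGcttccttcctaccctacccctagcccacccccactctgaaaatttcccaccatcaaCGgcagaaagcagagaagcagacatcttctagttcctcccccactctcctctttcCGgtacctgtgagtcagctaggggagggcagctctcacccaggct
ATM, chr11:108222817-108223116, plus strand: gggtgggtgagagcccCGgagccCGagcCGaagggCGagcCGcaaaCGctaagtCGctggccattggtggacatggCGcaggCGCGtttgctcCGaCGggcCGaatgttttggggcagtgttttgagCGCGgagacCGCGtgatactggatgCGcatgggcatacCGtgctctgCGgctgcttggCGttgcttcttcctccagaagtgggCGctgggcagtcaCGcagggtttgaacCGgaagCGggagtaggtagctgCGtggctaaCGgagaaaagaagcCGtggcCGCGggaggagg
CD3D's window holds 5 CG and ATM's 30. The median was 26 over the 50 members with a window in the table and 14 over all 27305 windows. Members without an entry were CADM1, TAGLN, CBL, VWA5A, FOXRED1, ETS1 and SNX19. The letters GGGCGG (a GC box, on either strand) were found in 78% of the members' windows, 74.8% of those of the tested stretch genes and 44.6% of all, and TATAAA in 2%, 2.61% and 12%. Neither motif is in the windows of CD3D or ATM. CASP4, the member with the fewest CG at 3, had residuals of 0.40, 0.64, 0.25 and 0.46. Among the members whose residuals lay on both sides of 0, BIRC3 had 15 CG and SORL1 52.

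UBASH3B (ENSG00000154127, chr11:122655675-122814473, plus strand) encodes a phosphatase that dampens tyrosine kinase signalling. Its level was 4.39, 4.45 and 4.34 log2 RPKM in WT and 2.66, 2.75, 3.40 and 2.93 in KO1 to KO4. The clones formed a group well below WT, with KO3 the highest of them. The differences from the WT mean were -1.73, -1.63, -0.97 and -1.45, ratios of 0.301, 0.323, 0.510 and 0.366, and the residuals -1.10, -1.0, -0.33 and -0.72. Apart from CD3D, this was the tested member with the lowest mean over the clones relative to WT.

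NRGN (ENSG00000154146, chr11:124739846-124747210, plus strand), neurogranin, encodes a calmodulin-binding protein best known from neurons. It was at 3.61, 3.28 and 3.38 log2 RPKM in WT and at 2.18, 2.35, 1.91 and 2.42 in the clones. All clones were lower than all WT samples, with KO3 the lowest and KO4 the highest. Its residuals were -0.60, -0.43, -0.85 and -0.27. NRGN lies distal of UBASH3B, with HSPA8 and VWA5A, which stood above the stretch, in between.

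ACAT1 (ENSG00000075239, chr11:108121516-108147776, plus strand) encodes the mitochondrial acetoacetyl-CoA thiolase, an enzyme of ketone body and isoleucine breakdown. Its level was 4.27, 4.49 and 4.46 log2 RPKM in WT and 3.18, 3.28, 3.49 and 3.21 in the clones. The 4 clones lay close to each other and far below WT. The residuals were -0.59, -0.49, -0.26 and -0.46, so KO3 only just passed the margin. ACAT1 sits between CUL5 and NPAT, whose residuals of -0.10, 0.19, -0.08 and 0.19 and 0.22, 0.17, -0.29 and 0.23 scattered around 0.

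Members that stood above the stretch were of unlike levels. CADM1 (ENSG00000182985, chr11:115169218-115504957, minus strand) encodes an immunoglobulin-type cell adhesion molecule. It was at -2.25, -2.43 and -2.86 log2 RPKM in WT and at 2.83, -1.93, 0.37 and 1.45 in KO1 to KO4. WT was low throughout, at an estimated 87.7 to 134 reads, while KO1 was high, at an estimated 4539 reads, KO4 and KO3 were intermediate and KO2 was only slightly above WT. The differences from the WT mean were 5.34, 0.59, 2.90 and 3.98. CADM1 was the only tested member with all clones above all WT samples, and the clones ranged over 4.76 log2 units among themselves. It passed the filter only through KO1, KO3 and KO4, where it was high.

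HSPA8 (ENSG00000109971, chr11:123057489-123063230, minus strand) encodes the constitutive heat shock protein Hsc70 and was the most abundant member. Its level was 9.35, 9.40 and 8.45 log2 RPKM in WT1 to WT3 and 9.29, 8.92, 9.15 and 9.24 in the clones. WT3 was the lowest library of all and WT2 the highest, so the groups overlapped. The differences from the WT mean were 0.22, -0.14, 0.10 and 0.18, and the residuals 0.86, 0.50, 0.75 and 0.91. WT3 decides this value: the mean of the 4 clones' differences was 0.09 with all samples and -0.22 without WT3, and HSPA8 no longer stood above the stretch by the margin in every clone when WT3 was left out. The genome also holds copies of HSPA8 that resemble it closely, and the treatment of reads shared with them is not stated.

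The HSPA8 window is shown with 2 kinds of motif in capitals: CCAAT, here in its reverse form ATTGG, and GAANNTTC, the core of the heat shock element, which reads the same on both strands.
HSPA8, chr11:123062087-123062386, minus strand: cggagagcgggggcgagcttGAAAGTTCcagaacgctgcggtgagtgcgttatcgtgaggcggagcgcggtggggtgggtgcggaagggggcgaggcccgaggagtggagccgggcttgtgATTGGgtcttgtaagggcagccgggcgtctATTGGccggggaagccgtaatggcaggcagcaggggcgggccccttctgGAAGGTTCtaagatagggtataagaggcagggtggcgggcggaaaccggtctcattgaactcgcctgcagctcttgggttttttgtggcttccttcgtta
Each motif occurs 2 times in it. GAANNTTC was found in 6% of the members' windows, in 5.22% of those of the tested stretch genes and in 6.87% of all windows. CCAAT on either strand was in 30%, 31.3% and 35.7%. CCGGAAGT, a form of the ETS site, was in 8%, 12.2% and 4.44%, and is not in the HSPA8 window.

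USP2 and VWA5A, both below the filter, were the other members above the stretch. USP2, a deubiquitinase gene, was at -1.04, -1.09 and -0.82 log2 RPKM in WT and at -0.57, -1.25, -0.88 and -0.50 in the clones. VWA5A, which encodes a protein with a von Willebrand factor A domain, was at -1.75, -1.59 and -1.93 in WT and at -1.86, -1.29, -1.19 and -0.98 in the clones. In both genes the groups overlapped and neither was set apart from WT. The levels stand for an estimated 110 to 186 reads for USP2 and 97.4 to 189 for VWA5A.

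**Figure D3:**
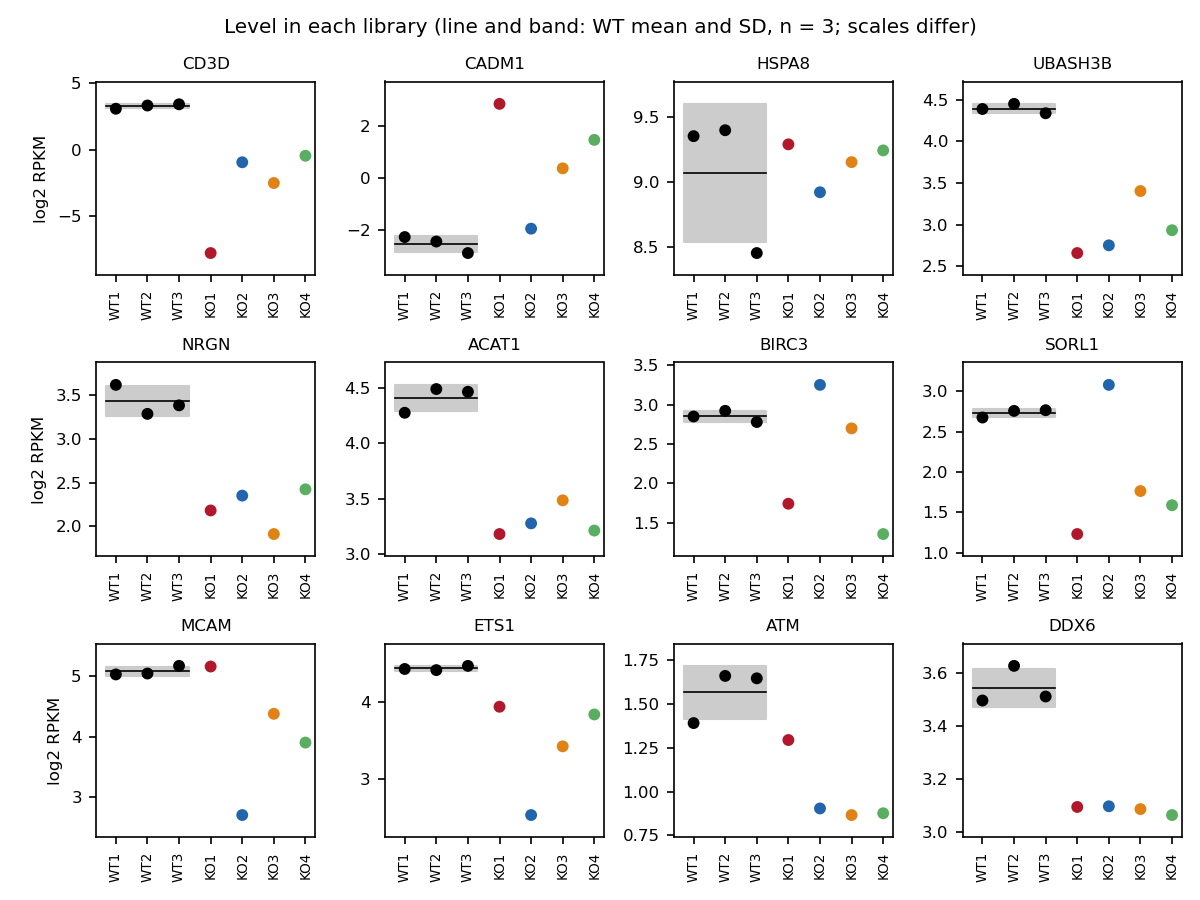
Level in log2 RPKM (y axis, scales differ) of 12 members in each library (x axis), with WT points in black over a band of the WT mean and SD (n = 3) and clones in colour. CD3D, UBASH3B, NRGN and ACAT1 are below WT in every clone, CADM1 is above, BIRC3, SORL1 and MCAM differ between clones, and DDX6 is nearly equal in the 4 clones.

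The members with residuals on both sides of the margin differed in which clones departed. MCAM (ENSG00000076706, chr11:119308529-119321521, minus strand) encodes the adhesion molecule CD146. It was at 5.02, 5.04 and 5.16 log2 RPKM in WT and at 5.15, 2.71, 4.37 and 3.90 in the clones. KO1 lay within the WT range, KO3 and KO4 were lower and KO2 was lower by 2.35 log2 units. The residuals were 0.72, -1.72, -0.04 and -0.44.

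SORL1 (ENSG00000137642, chr11:121452203-121633693, plus strand), a sorting receptor that moves cargo between the Golgi and endosomes, was at 2.67, 2.76 and 2.77 log2 RPKM in WT and 1.23, 3.08, 1.76 and 1.59 in the clones. KO2 was above every WT sample and the other clones were below. The residuals were -0.86, 0.99, -0.30 and -0.41. BIRC3 (ENSG00000023445, chr11:102317450-102339403, plus strand) had 2.85, 2.92 and 2.78 in WT and 1.74, 3.25, 2.70 and 1.36 in the clones, with KO2 again above WT, KO3 just under it and KO1 and KO4 low. Its residuals were -0.47, 1.05, 0.51 and -0.76. Leaving KO2 out moved SORL1 to the members below the stretch, while BIRC3 stayed on both sides.

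SLC35F2, a solute carrier, had residuals of 0.46, -0.37, 0.10 and -0.05, with KO1 high and KO2 low. THYN1, a nuclear protein gene first described in thymocytes, had 0.38, -0.25, -0.13 and 0.06, with KO1 high. SIK3, a salt-inducible kinase, had 0.00, 0.10, 0.30 and -0.30, with KO3 high and KO4 low. In these 3 genes all clones were below all WT samples, so the spread concerns only how far they were below. TAGLN, which encodes the actin-binding protein transgelin, was near the limit of detection at -2.42, -2.19 and -2.31 log2 RPKM in WT and -1.82, -3.24, -0.89 and -1.74 in the clones, with KO2 below and the other clones above WT.

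In the role of DNA damage and the cell cycle all 6 members were lower in all clones than in all WT samples. Of all tested members 86.8% showed this, against 72.9% of the tested stretch genes and 10.1% of all tested genes. Nothing about a role is read from such counts, here or in the roles below. ATM (ENSG00000149311, chr11:108222484-108369102, plus strand), the kinase that responds to double-strand breaks, was at 1.39, 1.66 and 1.65 log2 RPKM in WT and 1.30, 0.90, 0.87 and 0.88 in the clones, with KO1 nearer WT than the other 3 and residuals of 0.37, -0.02, -0.04 and 0.05. CHEK1, the checkpoint kinase downstream of ATR, was at 3.32, 3.36 and 3.09 in WT and 2.59, 2.61, 2.49 and 2.5 in the clones, and its residuals were -0.03, -0.01, -0.10 and -0.02. NPAT, a coactivator of histone genes at the start of S phase, had residuals of 0.22, 0.17, -0.29 and 0.23. USP28, a deubiquitinase, had -0.02, 0.30, 0.08 and 0.27, so that ATM, NPAT and USP28 each passed the margin in at least 1 clone. NCAPD3, a subunit of condensin II, had 0.12, -0.06, 0.17 and 0.18, and CEP57, a centrosomal protein gene, differed from the WT mean by -0.78, -0.65, -0.65 and -0.93.

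Genes of apoptosis and of the inflammatory caspases were more varied. BIRC2 and BIRC3, neighbours that encode the inhibitor-of-apoptosis proteins cIAP1 and cIAP2, were both highest in KO2 among the clones. BIRC2 was at 3.71, 3.75 and 3.65 log2 RPKM in WT and 3.11, 3.60, 3.06 and 3.12 in the clones, with KO2 just below the WT samples and the other clones lower. CASP4, the caspase that senses lipopolysaccharide in the cytosol, was at 2.08, 2.34 and 2.53 in WT and 2.07, 2.31, 1.90 and 2.04 in the clones, and the groups overlapped. PANX1, a channel that releases ATP, had residuals of 0.45, -0.09, 0.34 and 0.01, and EI24, a p53-induced gene of the endoplasmic reticulum, 0.34, -0.11, 0.17 and 0.02. TMEM123, a membrane protein linked to oncotic cell death, was among the steadiest, with levels of 5.87, 5.93 and 5.72 in WT and 5.07, 5.12, 5.01 and 5.05 in the clones.

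The 4 tested ubiquitin and cullin genes were lower in all clones than in all WT samples. CUL5, the scaffold of a cullin-RING ligase, was at 2.75, 2.87 and 2.67 log2 RPKM in WT and 2.03, 2.31, 2.02 and 2.22 in the clones. DCUN1D5, which promotes neddylation of cullins, was at 5.22, 5.39 and 5.26 and 4.45, 4.02, 4.38 and 4.02, and its residuals of -0.20, -0.63, -0.25 and -0.53 placed it below the stretch in KO2 and KO4. UBE4A, a ubiquitin chain elongation factor, had residuals of -0.13, 0.15, 0.01 and -0.11. CBL, a ligase for activated receptor tyrosine kinases, had 0.44, -0.22, -0.05 and 0.18, with KO1 nearest to WT. CBL overlaps MCAM on the other strand over 5398 bases. No strand setting is given for the counting, and reads from that overlap could belong to either gene; both were nearest WT in KO1 and lowest in KO2.

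Mitochondrial and cofactor enzymes were all lower, with role medians of -0.73, -0.93, -0.81 and -0.83 in KO1 to KO4. FDX1, the ferredoxin that carries electrons to mitochondrial P450 enzymes, was at 2.91, 3.11 and 2.94 log2 RPKM in WT and 2.13, 1.91, 1.93 and 2.12 in the clones. DLAT, the acetyltransferase core of the pyruvate dehydrogenase complex, was at 4.73, 4.76 and 4.66 and 4.01, 3.86, 4.20 and 3.92. In both genes the clones formed a tight group well under WT. PTS, an enzyme of tetrahydrobiopterin synthesis, had residuals of -0.12, -0.38, -0.29 and 0.21. FOXRED1, a complex I assembly factor, differed from the WT mean by -0.70, -0.59, -0.55 and -1.04, and ACAD8, a dehydrogenase of valine breakdown, by -0.50, -0.60, -0.71 and -0.81. With ACAT1, described above, the role's 6 members were below WT in every clone.

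Genes of N-glycosylation showed the same. STT3A, a catalytic subunit of the oligosaccharyltransferase, was at 5.50, 5.60 and 5.58 log2 RPKM in WT and 4.58, 4.60, 4.96 and 4.61 in the clones, with KO3 the highest clone. DPAGT1, which starts the lipid-linked oligosaccharide, was at 3.76, 3.88 and 3.96 and 3.19, 2.89, 3.26 and 3.05. All clones were lower than all WT samples in both. ALG9, a mannosyltransferase gene below the filter, was at -0.07, 0.01 and 0.23 in WT and -0.40, -0.38, -0.77 and -0.67 in the clones.

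Genes of membrane traffic were the largest role with 11 members, of which 9 were lower in all clones than in all WT samples. ARCN1, the delta subunit of the COPI coat, was at 6.24, 6.31 and 6.21 log2 RPKM in WT and 5.29, 5.37, 5.52 and 5.22 in the clones. APLP2, a homologue of the amyloid precursor protein, was at 7.0, 7.03 and 7.12 and 6.24, 6.33, 5.77 and 6.18, with KO3 the lowest. Both are abundant genes, and their residuals were -0.33, -0.24, -0.07 and -0.29 and -0.17, -0.07, -0.61 and -0.13. MTMR2, a phosphoinositide phosphatase, had residuals of -0.23, -0.28, -0.11 and -0.27. PAFAH1B2, a subunit of a platelet-activating factor acetylhydrolase, was at 4.16, 4.26 and 4.19 in WT and 3.53, 3.39, 3.47 and 3.45 in the clones, a spread of 0.15 among the residuals. VPS26B, a retromer subunit, differed from the WT mean by -0.65, -0.44, -0.77 and -0.74. SNX19, a sorting nexin, differed by -0.64, -0.47, -0.77 and -0.52. IFT46, a subunit of intraflagellar transport, was at 1.73, 1.91 and 2.05 log2 RPKM in WT and 1.26, 0.52, 1.19 and 1.18 in the clones, with KO2 the lowest. PCSK7, a proprotein convertase, and VPS11, a core subunit of the HOPS and CORVET tethers, were the least expressed of the role, at WT means of 0.79 and 0.85 log2 RPKM; VPS11 overlapped with WT through KO3.

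All 7 signalling and transcription genes were lower in all clones than in all WT samples. ETS1 (ENSG00000134954, chr11:128458761-128587558, minus strand), a transcription factor, was at 4.43, 4.41 and 4.47 log2 RPKM in WT and 3.94, 2.52, 3.42 and 3.84 in the clones; KO2 lay far below the rest. MAML2, a coactivator of Notch, was at 0.82, 0.96 and 1.11 and -0.99, -0.23, 0.01 and 0.01, with KO1 lowest. SIK2, a salt-inducible kinase, had residuals of 0.21, 0.39, -0.05 and 0.49. PPP2R1B, a scaffold of the phosphatase PP2A that overlaps SIK2 over 3946 bases on the other strand, had 0.17, 0.46, 0.21 and 0.19. Both were thus nearer to WT than the stretch in most clones.

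Among RNA and ribosome factors, DDX6, an RNA helicase of processing bodies, was the steadiest member of all. It was at 3.50, 3.63 and 3.51 log2 RPKM in WT and 3.09, 3.10, 3.09 and 3.06 in the clones, and its residuals ran over 0.07. Its difference from WT was also smaller than that of the stretch in each clone, at -0.45, -0.44, -0.44 and -0.47. TAF1D, a subunit of the RNA polymerase I factor SL1, was at 3.99, 3.94 and 4.06 and 3.07, 2.85, 3.08 and 2.59, farther down than the stretch. DDX10, a helicase of ribosome biogenesis, had residuals of -0.05, -0.40, 0.11 and -0.07. CWF19L2, a spliceosome-associated gene, had -0.04, 0.45, 0.07 and 0.00.

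Of the remaining members, RDX encodes radixin, which links actin to the membrane. It was at 4.86, 4.82 and 4.60 log2 RPKM in WT and 3.81, 3.92, 3.76 and 3.63 in the clones, and its residuals of -0.31, -0.20, -0.34 and -0.39 were negative in every clone. CCDC82 was at 2.25, 2.36 and 2.27 and 1.25, 1.35, 1.26 and 1.40, with residuals of -0.40, -0.30, -0.37 and -0.16. These genes were short of the margin in 1 clone each. RDX overlaps ZC3H12C over 78481 bases, TAF1D overlaps C11orf54 over 23159 and DPAGT1 overlaps C2CD2L over 6134, each on opposite strands, so the values of these members may hold reads of the other gene. Over all tested members, 11 had residuals within 0.25 in all 4 clones and 10 had residuals that ran over less than 0.25.

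Members with a shared start region were set beside other neighbours. In the table, 15 pairs of protein-coding stretch genes lie head to head, with starts within 1 kb on opposite strands, and 13 have both genes tested. In 4 pairs both genes are members: NPAT and ATM (158 bases between the starts), IFT46 and ARCN1 (580), NCAPD3 and VPS26B (809) and THYN1 and ACAD8 (125). The RefSeq windows of NPAT and ATM overlap, so ATM's window printed above is in part also NPAT's. The gap between the 2 genes' differences was 0.15, 0.19, 0.26 and 0.18 in KO1 to KO4 for NPAT and ATM, with ATM the nearer to WT in KO1 and KO3. It was 0.33, 0.50, 0.03 and 0.31 for IFT46 and ARCN1, 0.13, 0.26, 0.30 and 0.20 for NCAPD3 and VPS26B, and 0.24, 0.29, 0.06 and 0.14 for THYN1 and ACAD8. Over all 13 pairs the median gap was 0.24, 0.19, 0.20 and 0.14, and over 130 other adjacent pairs of tested stretch genes it was 0.53, 0.36, 0.32 and 0.49. The pairs share the clones and the WT mean, and where starts overlap reads could belong to either gene, so no test is given.

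Partners of the members' protein complexes that lie elsewhere in the genome were examined from a list of 46 genes, of which 45 were tested. Their median differences were -0.06, 0.02, -0.11 and 0.02 in KO1 to KO4. In 7 of them all clones were below all WT samples and in 5 above, against 10.1% and 8.88% of all tested genes. None was called by limma, against 0.412% of all tested genes. In limma 9 had an unadjusted p under 0.05, against 1753 of all 11154 tested genes. The difference between members and partners was not tested. The oligosaccharyltransferase partners of STT3A had medians of 0.03, 0.14, 0.02 and 0.03 over 7 genes, while STT3A differed by -0.98, -0.95, -0.58 and -0.94. STT3B, the other catalytic subunit, was at 0.11, 0.14, 0.13 and 0.03. The partners of DLAT were uneven, with DLD, which encodes the E3 subunit, below WT in all clones and PDHX above. For the coatomer, the 7 partners of ARCN1 had medians of -0.31, -0.10, -0.24 and -0.12 against -0.96, -0.87, -0.71 and -1.02 for ARCN1 itself. The retromer partners of VPS26B had medians of -0.31, -0.31, -0.50 and -0.34 over 3 genes. VPS26A, its paralogue on chromosome 10, was at -0.38, -0.40, -0.74 and -0.35 with an adjusted p of 0.160 in limma. The condensin II partners of NCAPD3 were at 0.58, 0.12, 0.09 and 0.15 over 4 genes, and the checkpoint genes ATR, CHEK2, TP53BP1 and RAD50 at a median of 0.17, 0.00, 0.03 and 0.12, against -0.66, -0.64, -0.75 and -0.75 for CHEK1.

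**Figure D4:**
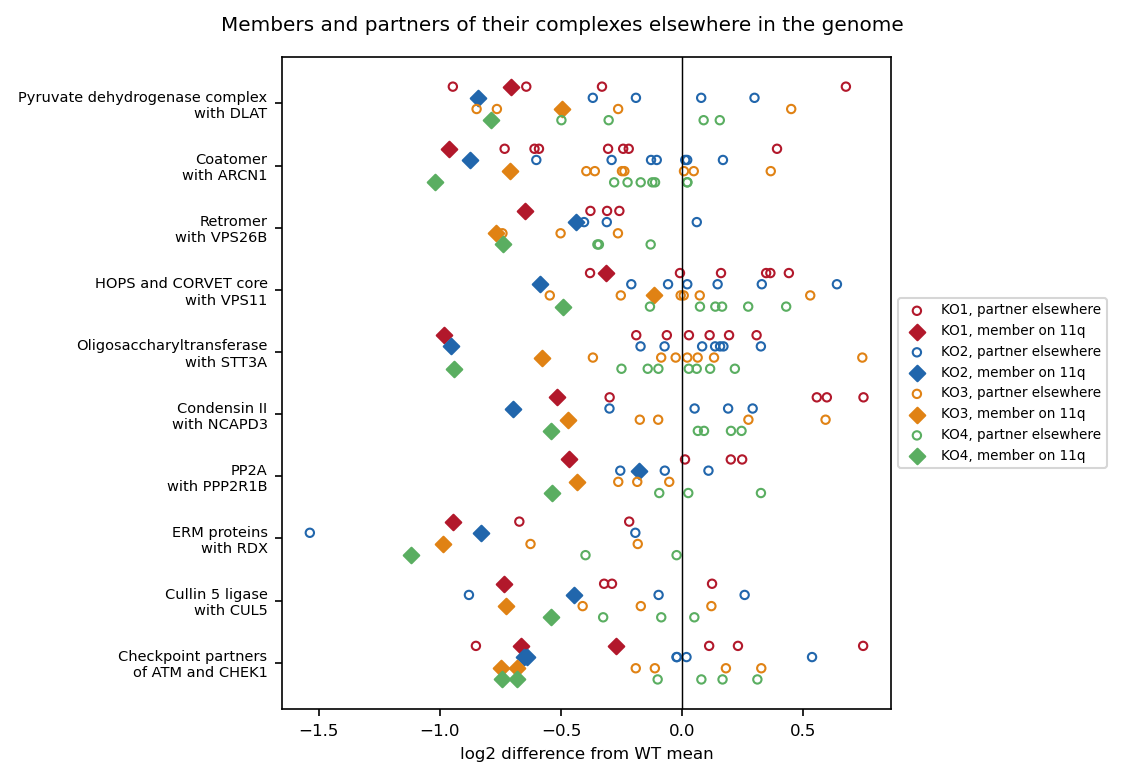
Log2 difference from the WT mean (x axis) of members (filled diamonds) and of partners of their complexes encoded elsewhere in the genome (open circles), 1 row of points for each clone within each complex (y axis). Members of distal 11q lie between -1.12 and -0.11, while the circles lie on both sides of 0 in most complexes and both ERM partners of RDX lie below 0 in every clone.

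Other genes of the stretch were taken from a list of 49. Of 17 tested, 8 had all clones below all WT samples and none had all above. All clones were below in 72.9% of the tested stretch genes and in 10.1% of all tested genes. The list had medians of -0.70, -0.67, -0.70 and -0.76 in KO1 to KO4. By limma 4 were lower, against 0.242% of all tested genes: SDHD, TIMM8B, RPS25 and ATP5L. RPS25, a ribosomal protein gene, differed by -0.80, -1.08, -1.05 and -0.96, and SDHD, a subunit of succinate dehydrogenase, by -1.0, -0.67, -1.23 and -0.91. YAP1, the coactivator of the Hippo pathway, differed by -1.14, -0.63, -0.99 and -0.90 and had an adjusted p of 0.0540. HYOU1, a chaperone gene of the endoplasmic reticulum, differed by -0.70, -0.84, 0.96 and -1.03, and JAM3, a junctional adhesion gene, by 0.69, -0.62, -0.88 and 0.45. The histone methyltransferase KMT2A differed by 0.11, -0.52, -0.42 and -0.34 and overlapped with WT. CRTAM, which encodes a lymphocyte receptor that binds CADM1, was scattered and differed by -6.19, -4.07, 0.62 and -1.45 at a WT mean of 0.30 log2 RPKM.

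The position of the stop codon was compared as well, late stops (KO3 and KO4) against early stops (KO1 and KO2), a contrast that the choice of members did not use. No gene passed an adjusted p of 0.05 in limma (0% of 11154), and at an unadjusted p under 0.05 there were 436, or 3.91%. Of the 53 tested members 1 was among these. UBASH3B was higher in late-stop than in early-stop clones by 0.46 log2 units (unadjusted p = 0.0428, adjusted p = 0.990 in limma, fitted across all genes). Leaving out KO1 or KO2 leaves a single early-stop library, assumed to vary like the other groups, so those fits set 1 clone against 2. Without KO1 they called 276 genes (2.51%), with MCAM and SORL1 among the members, and without KO2 275 genes (2.49%), with CD3D.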

How the data were processed

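Illumina TruSeq libraries were prepared from total RNA that had been treated with DNase, per the labels' protocols. The authors deposited 1 table of log2 RPKM (reads per kilobase of gene, scaled to library size). The submitters' processing notes name the build hg38, edgeR, HTSeq 0.11.2, STAR 2.5.3a and Trim Galore 0.4.1; annotation, strand setting, prior count and filters are not given in the sources used here. Read totals are not in the table. The values shared by genes without reads gave an estimated mean library of 58.0 M reads at an assumed prior count of 0.25, so reads quoted are estimates for a library of that size.

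Genes with log2 RPKM above 0 in at least 3 of 7 libraries were tested (11154 of 13142). No pseudocount was added. Knockout clones were compared with wild type in limma 3.58.1 (R 4.3.3; variance trend, Benjamini-Hochberg adjustment), with clones as replicates, and late-stop with early-stop clones (stop after or before residue 1500) in a fit of all libraries. The procedure was run on simulated data with independent genes and the WT spread in every library. That setting lacks the wider spread among the clones, so it cannot check the calls made here. Positions were matched for 12534 genes in GENCODE 29, 205 of them by synonym; the stretch holds 320 protein-coding genes there, of which 172 are in the table and 144 were tested. Library medians over tested genes were set to 0 before stretch medians and residuals were taken. Promoters came from RefSeq. All members were accounted for. Per-sample values were given for those beyond the margin and, elsewhere in each role, for part of the members. The members and lists were chosen with earlier results of these data known. Alternatives were no filter, quantile normalization, no trend, other centring, a pseudocount of 1 RPKM, other starts of the stretch, other margins, a replicate block and leaving out each library.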

Additional observations from a re-analysis of the deposited data

Results flagged for a closer look

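Among the 4 clones, the distance of the highest or lowest clone to its nearest neighbour was compared with the whole range for each of the 57 members, and 5 members had 1 clone apart by Dixon's criterion. Chance flags about 1 in 20 groups. The share over all tested genes is not given here, so nothing is read from the count. In BIRC2, an inhibitor of apoptosis, KO2 was highest at 3.60 log2 RPKM, with 3.11, 3.60, 3.06 and 3.12 in KO1 to KO4. In ATM, the double-strand break kinase, KO1 was highest at 1.30, with 1.30, 0.90, 0.87 and 0.88 in the clones. In STT3A, of the oligosaccharyltransferase, KO3 was highest at 4.96, with 4.58, 4.60, 4.96 and 4.61 in the clones. NPAT, the histone gene coactivator that shares its start region with ATM, had KO3 lowest at 0.97, with 1.5, 1.45, 0.97 and 1.42 in the clones. IFT46, of intraflagellar transport, had KO2 lowest at 0.52, with 1.26, 0.52, 1.19 and 1.18 in the clones. In each of these genes all clones were still below all WT samples.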

How the results depend on the processing

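The clones' medians over the stretch kept their sign under every alternative run, and 1 moved by more than the spread of the WT samples (-0.58 in KO3 with the stretch from 110 Mb). Over all genes, 46 were past the threshold in KO against WT (19 higher and 27 lower). The count was 114 with quantile normalization (64 higher and 50 lower), 0 with a replicate block, and 0 to 248 when 1 library was left out: 52, 248, 88 and 1 without KO1, KO2, KO3 and KO4 in turn and 0 each time a WT library was dropped. Equal numbers do not pair the samples: the labels give no such link, deviations of equal-numbered WT and KO libraries correlated at 0.060, 0.066 and -0.012, and WT1 correlated best with KO3. For late against early stops the count of 0 ranged from 0 to 276, with 276 without KO1 and 275 without KO2, each a fit with 1 early-stop library that is assumed to vary like the other groups. Members below the stretch numbered 9 at a margin of 0.15 and 1 at 0.5, against 4. Members above it numbered 7 at 0.15 and 2 at 0.5, against 4. With quantile normalization they numbered 2, CADM1 and HSPA8. That run held only genes past the filter, so USP2 and VWA5A were absent from it. Members on both sides numbered 11 at 0.15 and 3 at 0.5, against 7. When 1 library was left out they numbered 3 to 8, with 4 without KO1 and 3 without KO2. That class needs a clone beyond the margin on each side, so leaving out a clone makes it harder to meet. Other causes of these changes were not tested. The difference of HSPA8 ranged from -0.22 without WT3 to 0.26 without WT2. Of the other values of single members under alternatives, 16 moved by more than the WT spread and 663 did not. Read totals unknown to the table limit what can be said of low genes such as CD3D in the clones.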
